A study of Saccharomyces cerevisiae with 2 samples.

Results

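The genes described here are the nuclear tRNA genes of Saccharomyces cerevisiae whose anticodon begins with a uridine that is modified through the Elongator pathway. They were taken by name as all nuclear genes of 8 anticodons, namely glutamate tE(UUC), lysine tK(UUU), glutamine tQ(UUG), arginine tR(UCU), glycine tG(UCC), alanine tA(UGC), valine tV(UAC) and threonine tT(UGU). The single gene tE(UUC)M was left out by the rule and kept for comparison. This gave 46 of the 252 tRNA genes listed, in 7 of these anticodons. They were 13 glutamate, 7 lysine, 7 glutamine, 11 arginine, 3 glycine, 3 alanine and 2 valine genes. The RefSeq annotation of the sacCer3 assembly holds 55 nuclear genes with these anticodons. Apart from tE(UUC)M, the 4 tT(UGU), 2 tQ(UUG) and 2 tA(UGC) genes that bring the number to 55 are not analysed here.

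The study compared small RNA from 1 library of a wild type CDK1 strain (WT) and 1 library of a cdk1-as1 strain, both harvested in S phase. The cdk1-as1 allele is an analog-sensitive form of the kinase Cdk1 (gatekeeper phenylalanine to glycine), which can be blocked by an added inhibitor and is less active than wild type even without it. Cells of both strains were arrested with 15 mg/L α factor for 3 h and released into rich medium (YPD), or into YPD with 10 mg/L nocodazole. The labels do not say which medium was used for these libraries, and no treatment with the inhibitor is named. The question posed was whether Cdk1 affects tRNA genes broadly. For each gene the authors gave an estimated count of fragments (not always a whole number) and an FPKM value. The name FPKM stands for fragments scaled to gene length and sequencing depth. Among genes of equal length, however, FPKM was not always in proportion to the count, and the study names spike-in standards for its normalization. With 1 library per strain no difference was tested, and intervals of counts, which presume that 1 count is 1 sequenced fragment, allow for counting error only. Of the 239 nuclear tRNA genes listed, 232 had a value in WT and 198 in cdk1-as1. Summed over the nuclear genes, FPKM in cdk1-as1 was 42.1% of that in WT. RNA came from whole cultures, so fewer cells of a type and less RNA per cell cannot be told apart.

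The first base of the anticodon pairs with the third base of the codon and is called the wobble base. The Elongator complex starts a set of side chains on uridine there. In the tRNAs for glutamate UUC, lysine UUU and glutamine UUG the product is 5-methoxycarbonylmethyl-2-thiouridine, whose sulfur is added by a further pathway that includes Ncs6. In arginine UCU and glycine UCC it is 5-methoxycarbonylmethyluridine, and in alanine UGC, valine UAC and threonine UGU it is 5-carbamoylmethyluridine. These modifications help the ribosome to read codons ending in A or G, and the glutamate, lysine and glutamine tRNAs are cut next to the modified base by zymocin, a killer toxin of the yeast Kluyveromyces lactis. The notes of the annotation name thiolation by Ncs6 for 27 of the 46 genes, the toxin for 7 glutamate genes, and the side chain of arginine tRNA for all 11 arginine genes. Modified bases can stop reverse transcriptase, so the amount of cDNA made from a tRNA can depend on its modification as well as on its level.

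The sequences below, tE(UUC)M and tK(UUU)G2 aside, each stand for all members with the same sequence. Between such members values differed by strand for every anticodon but tA(UGC) and tV(UAC). tE(UUC)M and tK(UUU)G2 are shown because single bases set them apart. All sequences were read from the RefSeq genome of sacCer3, 5′ to 3′ on the strand of the gene, with the DNA letters of the anticodon in capitals. For tE(UUC)M and for the lysine pair the capital outside the anticodon is the base that differs.
tE(UUC)E2, chrV:354934-355005, plus strand: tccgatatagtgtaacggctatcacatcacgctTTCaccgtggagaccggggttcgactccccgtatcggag
tE(UUC)M, chrXIII:290801-290872, plus strand: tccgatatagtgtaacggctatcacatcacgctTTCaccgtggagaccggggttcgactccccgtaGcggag
tK(UUU)P, chrXVI:769207-769302, minus strand: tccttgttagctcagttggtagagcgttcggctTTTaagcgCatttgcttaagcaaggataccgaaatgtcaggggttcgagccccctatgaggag
tK(UUU)G2, chrVII:700953-701048, minus strand: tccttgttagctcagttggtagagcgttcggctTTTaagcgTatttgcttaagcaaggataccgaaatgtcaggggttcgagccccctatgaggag
tQ(UUG)C, chrIII:168301-168372, minus strand: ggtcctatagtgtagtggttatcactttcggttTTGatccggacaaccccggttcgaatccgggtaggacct
tR(UCU)K, chrXI:162487-162558, minus strand: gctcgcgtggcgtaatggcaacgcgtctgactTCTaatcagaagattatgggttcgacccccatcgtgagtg
tG(UCC)G, chrVII:779616-779687, plus strand: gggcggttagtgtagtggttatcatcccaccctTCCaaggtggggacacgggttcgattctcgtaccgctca
tA(UGC)L, chrXII:214883-214955, minus strand: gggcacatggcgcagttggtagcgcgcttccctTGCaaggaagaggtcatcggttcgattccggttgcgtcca
tV(UAC)B, chrII:326792-326865, minus strand: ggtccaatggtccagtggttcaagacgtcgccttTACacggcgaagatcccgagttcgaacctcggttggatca

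The 46 genes hold only 8 gene sequences. Among these 46, all copies of an anticodon were identical over the whole gene, except for lysine. The lysine gene tK(UUU)G2 differed from the other 6 lysine genes by C42T, counted from the first base of the gene. That base lies in the 23 nt intron, which spans bases 38 to 60. The lysine genes are the only ones of the 46 with an intron, so their 7 genes share 1 mature sequence. tE(UUC)M differed from the 13 other glutamate genes by T67G alone. The letters GTTCGANNC, the core of the B box to which TFIIIC binds inside tRNA genes, were found on the gene's own strand in the exons of all 46 genes, against 67.2% of the other annotated nuclear tRNA genes and 72.7% of all of them. A run of 4 T, the kind of stretch at which RNA polymerase III stops, lay within 20 nt downstream of 42 genes (91.3%, against 97.8% of all annotated nuclear tRNA genes). The 4 genes without one were the arginine genes tR(UCU)B, tR(UCU)D, tR(UCU)J1 and tR(UCU)J2, each of which lies 10 nt upstream of an aspartate tRNA gene on the same strand. The annotation describes tR(UCU)B as part of a dicistronic transcript with tD(GUC)B. The genes lie on 14 chromosomes, and 33 of them (71.7%) within 1000 nt of an annotated Ty long terminal repeat, against 63.8% of the other nuclear tRNA genes.

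Copies with the same sequence carried the same values only where they lay on the same strand. The 46 genes fell into 13 sets of identical values, and among the 5 anticodons with copies of 1 sequence on both strands of the genome the sets followed the strand without exception. All glutamate copies on the plus strand shared 1 value, and all those on the minus strand another. The plus strand was the higher one for glutamate and glycine, and the minus strand for lysine, glutamine and arginine. Among all nuclear tRNA genes 23 sequences occur on both strands, and in 22 of them each strand had 1 value of its own, the exception being tS(UGA). Over the 23 the plus strand was higher in WT for 9 sequences and the minus strand for 14. The same strand was higher in both libraries for the 4 member sequences with a value in both. The counting program and its strand setting are not given in any source at hand, and their part in these values was not tested. Counts summed per anticodon, which do not depend on how fragments were divided among identical copies, are therefore given beside the values per gene.

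**Figure D1:**
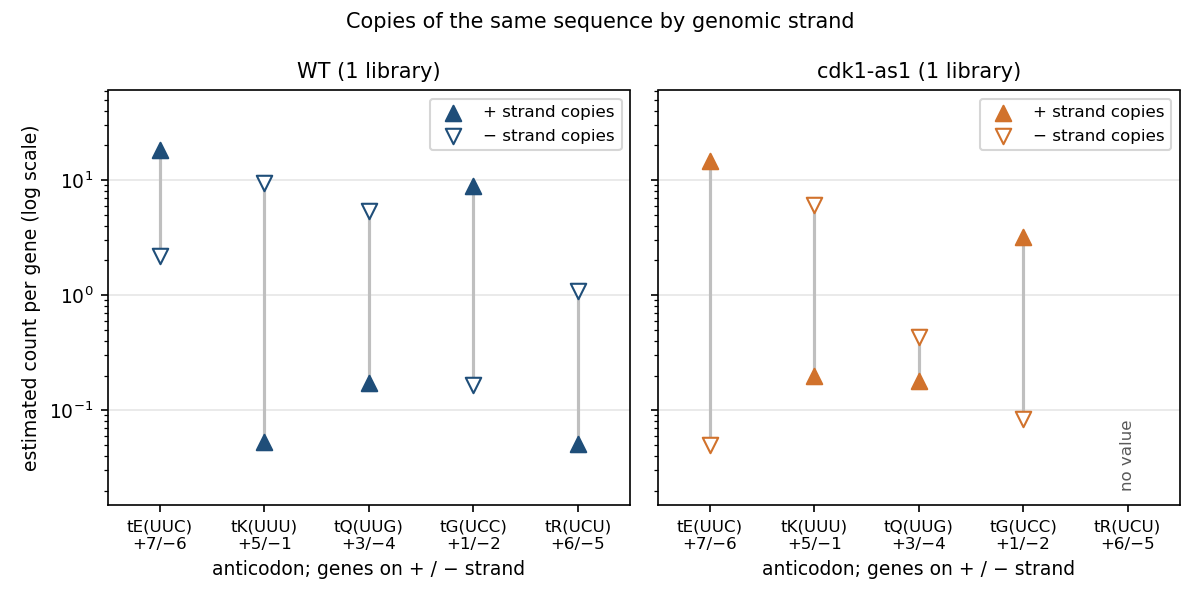
Estimated count per gene (log axis) for copies of the same sequence on the plus strand (filled triangles pointing up) and on the minus strand (open triangles pointing down), in the WT library (left) and the cdk1-as1 library (right). The number of genes on each strand stands under the anticodon, the lysine gene tK(UUU)G2 is left out because its sequence differs, and tR(UCU) has no value in cdk1-as1. In WT the glutamate copies lay at 18.1 and 2.20 counts and the lysine copies at 0.0530 and 9.47.

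For the 46 genes together, the WT library held 249 counts (exact Poisson 95% bounds 219 to 282) and the cdk1-as1 library 131 (110 to 155). The log2 ratio of cdk1-as1 to WT was −0.93 in summed counts (95% exact binomial interval −1.24 to −0.62) and −1.32 in summed FPKM. The nuclear tRNA genes outside this group had −0.94 (−1.04 to −0.85) and −1.24, so as a whole the group lay beside the rest. Its share of all nuclear tRNA counts was 8.61% in WT and 8.69% in cdk1-as1. Within the group the glutamate genes held 56.2% of the counts in WT (95% exact binomial interval 49.8 to 62.5) and 78.6% in cdk1-as1 (70.6 to 85.3). Without them the log2 ratio was −1.95 in summed counts (−2.62 to −1.35) and −1.90 in summed FPKM.

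Counted gene by gene, 35 of the 46 genes had a value in both libraries and 11, all for arginine, in WT only (23.9%, against 17.2% of the nuclear genes). No member had a value in cdk1-as1 only, against 2.93%. Of the 35, 25 (71.4%) were lower in cdk1-as1 by FPKM and 10 were higher, whereas among all 191 nuclear tRNA genes measured in both libraries 91.1% were lower. By counts 26 were lower, against 82.7%. At least 2-fold lower were 17 genes (48.6%, against 67%) and at least 2-fold higher 8 genes (22.9%, against 4.71%). The median log2 ratio was −0.81, against −1.48 over all 191 genes. This member median is the value shared by the 7 plus strand glutamate copies. It became −1.16 over 11 values with identical copies counted as 1, and no such value over all nuclear genes is given here. However, 11 of the 35 genes belong to 4 sets whose counts summed to less than 1 in both libraries, and all 8 genes that were at least 2-fold higher are among them. So are tK(UUU)G2, tG(UCC)N and tG(UCC)O, which are counted among the 17 genes at least 2-fold lower. Where one library held 1 count or more, 22 of 24 genes were lower (91.7%), against 93.9% of the 148 such nuclear genes. The other two, which were higher, are the valine genes. With 10 counts or more, all 10 genes were lower, against 93.2% of the 73 such nuclear genes. These numbers do not support a direction, since genes that pass only through WT had to have fewer counts in cdk1-as1. Such genes are the 6 minus strand glutamate and 4 minus strand glutamine copies at 1 count, and the 3 alanine genes at 10 counts. Setting the FPKM totals equal raises each log2 ratio by 1.27 and removes a change common to all tRNA genes. It left 16 of the 35 genes lower, against 63.4% of the 191.

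**Figure D2:**
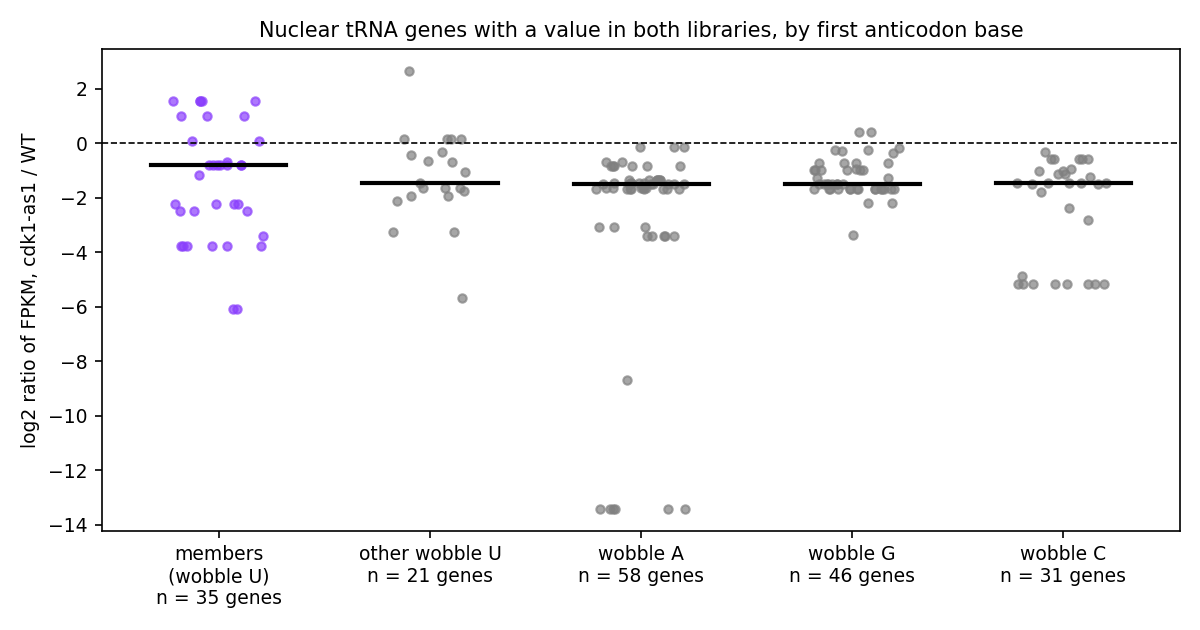
FPKM of cdk1-as1 relative to WT, as a log2 ratio, for each nuclear tRNA gene with a value in both libraries (points, 1 per gene, with horizontal jitter) and the median of each group (bars), by the first base of the anticodon. The dashed line marks equal FPKM. The median of the 35 members lay at −0.81 and that of the 21 other genes with wobble uridine at −1.48, and 8 of the members above the line had less than 1 count. The median of the members is the value shared by the 7 plus strand glutamate copies.

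Glutamate UUC tRNA reads the codon GAA. The 7 copies on the plus strand, among them tE(UUC)E2 and tE(UUC)G1 (SOE1, which can mutate to a suppressor that inserts glutamate at lysine codons), each had 81158 FPKM and 18.1 counts in WT. In cdk1-as1 each had 46209 FPKM and 14.6 counts, the highest FPKM of all 46 genes in both libraries. The log2 ratio was −0.81 in FPKM and −0.31 in counts summed over the copies (−0.71 to 0.07), so the count interval includes 0. The libraries held 2952 counts in WT and 1570 in cdk1-as1. Count ratios here are not set to equal totals, so 0 does not mark an unchanged share of the counts. The 6 copies on the minus strand, such as tE(UUC)C, had 8501 FPKM and 2.20 counts each in WT, and 627 FPKM and 0.0501 counts in cdk1-as1. Over these copies WT had 13.2 counts and cdk1-as1 0.301, with an upper bound of −1.61 for the log2 ratio. Over all 13 copies the counts were 140 in WT against 103 in cdk1-as1, a log2 ratio of −0.45 (−0.82 to −0.07). With equal count totals it was 0.46 (0.09 to 0.85). In summed FPKM it was −0.92, or 52.9% of WT. tE(UUC)M, which differs by the single base above, had 152 counts and 569329 FPKM in WT against 144 counts and 456903 FPKM in cdk1-as1. Its log2 ratio was −0.08 in counts (−0.42 to 0.26) and −0.32 in FPKM. This single gene thus was given more estimated counts than the 13 identical copies together in both libraries, and the intervals of the log2 count ratios overlapped. A fragment that does not cover base 67 fits tE(UUC)M and the 13 copies alike. How such fragments were divided is not known, and its part in these values was not tested.

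Lysine UUU tRNA reads AAA, and its genes are the intronic ones of the group. tK(UUU)P, the only minus strand gene with the common sequence, had 32291 FPKM and 9.47 counts in WT against 19886 FPKM and 6.02 counts in cdk1-as1. Its log2 ratio was −0.70 in FPKM and −0.65 in counts, with an interval of −2.36 to 1.07 that spans both directions. The 5 plus strand copies, such as tK(UUU)D, had 773 FPKM in WT against 2282 in cdk1-as1, but at 0.0530 and 0.199 counts each. tK(UUU)G2, set apart by its intron base, had 25496 FPKM in WT against 2412 in cdk1-as1, at 0.270 and 0.881 counts. For the latter FPKM and counts thus went in opposite directions, and no fold is given for these 6 genes, whose sets stay under 3 counts in both libraries. tK(UUU)G2 in WT had 94528 FPKM per count and tK(UUU)P had 3411, at the same gene length, so FPKM was not in proportion to the count. Summed over the 7 genes the counts were 10.0 and 7.89, a log2 ratio of −0.34 (−1.87 to 1.17). This interval spans 0, as does that with equal count totals (−0.95 to 2.08).

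Glutamine UUG tRNA reads CAA. The 4 minus strand copies, such as tQ(UUG)C, had 18371 FPKM and 5.34 counts each in WT against 3886 FPKM and 0.436 counts in cdk1-as1. They were 4.73-fold lower in FPKM, a log2 ratio of −2.24. In counts summed over the copies, 21.3 in WT and 1.75 in cdk1-as1, it was −3.61 (−6.53 to −1.36). The 3 plus strand copies, such as tQ(UUG)D1, were listed with more FPKM in cdk1-as1 (2868) than in WT (1420), at 0.179 and 0.173 counts each, where no direction can be read. Together the 7 glutamine genes had 21.9 counts in WT against 2.28 in cdk1-as1. The log2 ratio of these sums, −3.26 (−6.59 to −1.44), was the lowest of the 6 anticodons with values in both libraries, and its interval is wide because of the few counts in cdk1-as1. In summed FPKM the log2 ratio was −1.69, which is higher than that of the alanine genes.

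Arginine UCU tRNA reads AGA, the main arginine codon of yeast. None of its 11 genes is listed in the cdk1-as1 table, and they are the genes of the group with a value in WT only. In WT the 5 minus strand copies, such as tR(UCU)K, had 15875 FPKM and 1.10 counts each, and the 6 plus strand copies, such as tR(UCU)B, 6727 FPKM and 0.0504 counts. All 11 together held 5.78 counts in WT (95% exact Poisson interval 2.20 to 13.1), so the absence from the other table rests on few counts. The 4 copies upstream of an aspartate gene had the value of their strand: tR(UCU)J2 that of the minus strand, and the other 3 that of the plus strand. The tables list only values above 0, and no fold is given.

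Glycine UCC tRNA reads GGA, and its genes were found as frameshift suppressors. tG(UCC)G (SUF4), on the plus strand, had 45937 FPKM and 8.84 counts in WT against 20533 FPKM and 3.20 counts in cdk1-as1. It was 2.24-fold lower in FPKM, a log2 ratio of −1.16, and in counts −1.47 (−4.11 to 0.42). The minus strand copies tG(UCC)N (SUF6) and tG(UCC)O (SUF1) have the same sequence but 5520 FPKM in WT against 82.0 in cdk1-as1, at 0.166 and 0.0831 counts each. Summed over the 3 genes the log2 ratio was −1.45 in counts (−4.11 to 0.42) and −1.46 in FPKM. SUF4 held 96.4% of these counts in WT.

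Alanine UGC tRNA reads GCA. The 3 genes tA(UGC)E, tA(UGC)L and tA(UGC)O, all on the minus strand, had 77584 FPKM and 18.7 counts each in WT against 13943 FPKM and 3.19 counts in cdk1-as1. In WT their FPKM was near that of the plus strand glutamate copies (81158), and in cdk1-as1 well under it (46209). They were 5.56-fold lower in FPKM, a log2 ratio of −2.48, and the summed counts of 56.0 and 9.57 gave −2.55 (−3.62 to −1.50). Their interval did not overlap that of the glutamate genes, whose plus strand copies were the other members with at least 10 counts each. With equal count totals, which raise each log2 count ratio by 0.91, it was −1.64 (−2.71 to −0.59). The interval of the glutamine genes also stayed below 0 then (−5.68 to −0.52), while that of the glutamate genes lay above 0 (0.09 to 0.85).

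Valine UAC tRNA reads GUA, and both of its genes, tV(UAC)B and its copy tV(UAC)D, lie on the minus strand. Each had 16352 FPKM and 2.95 counts in WT against 17463 FPKM and 2.54 counts in cdk1-as1. The log2 ratio was 0.09 in FPKM and −0.22 in summed counts (−2.31 to 1.71). They were the only genes of the group with at least 1 count that were higher by FPKM, and by counts they were lower, with an interval that spans both directions.

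**Figure D3:**
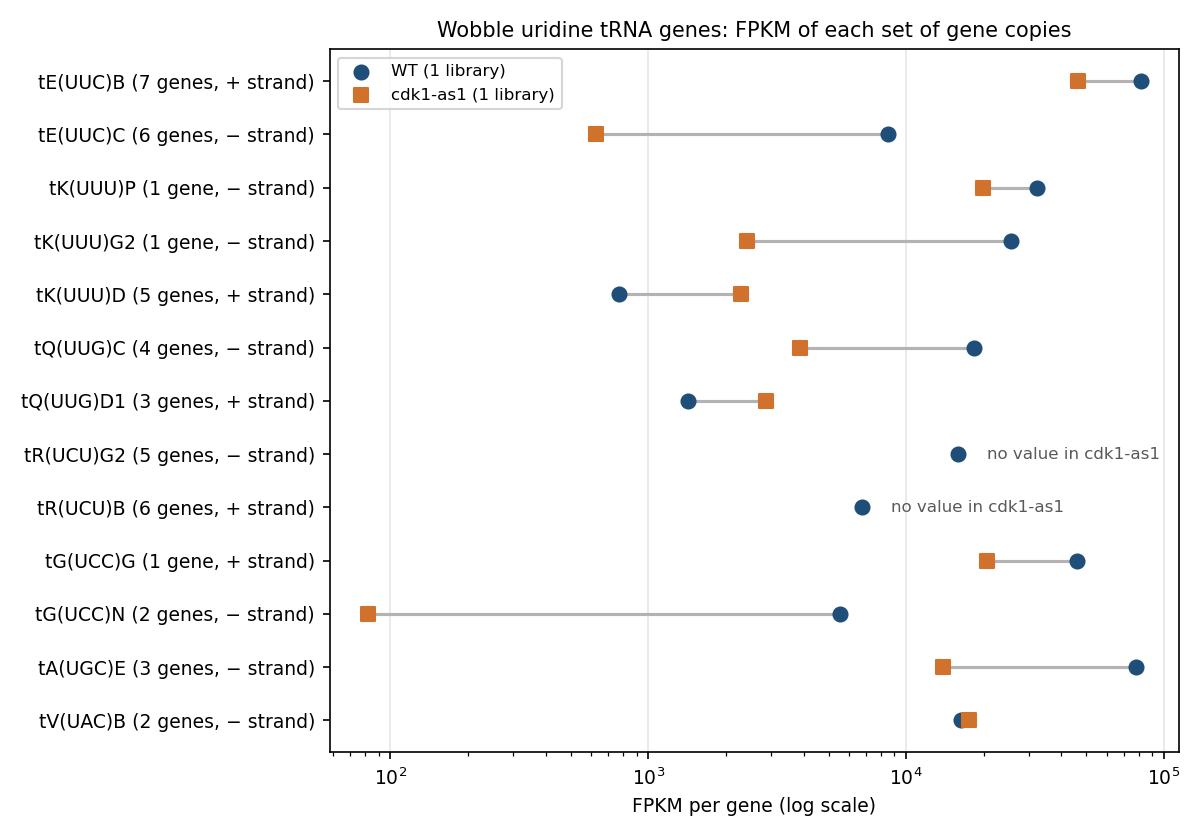
FPKM per gene (log axis) in WT (circles) and cdk1-as1 (squares) for the 13 sets of gene copies with identical values, each named by 1 member with its number of genes and strand. There is 1 library per strain and no error bar. The squares lie left of the circles in 8 of the 11 sets with both values, the exceptions being tK(UUU)D, tQ(UUG)D1 and tV(UAC)B.

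By modification, the 27 genes of the thiolated glutamate, lysine and glutamine tRNAs had a log2 ratio of −0.61 in summed counts (−0.96 to −0.26), at 172 counts in WT against 113 in cdk1-as1. The 14 genes of arginine UCU and glycine UCC had −2.15 (−4.75 to −0.50), at 15.0 and 3.36 counts, with the arginine genes at 0 in cdk1-as1. The 5 genes of alanine UGC and valine UAC had −2.08 (−2.97 to −1.22), at 61.9 and 14.7 counts. The value of the thiolated class came mostly from glutamate, as the glutamine genes of the same class lay at −3.26. The value of the alanine and valine class came mostly from alanine, with 56.0 of its 61.9 counts in WT, while valine lay at −0.22 (−2.31 to 1.71). The intervals of the thiolated class and of the alanine and valine class did not overlap, but that of valine alone overlapped the thiolated class. Each class holds only 2 or 3 anticodons.

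**Figure D4:**
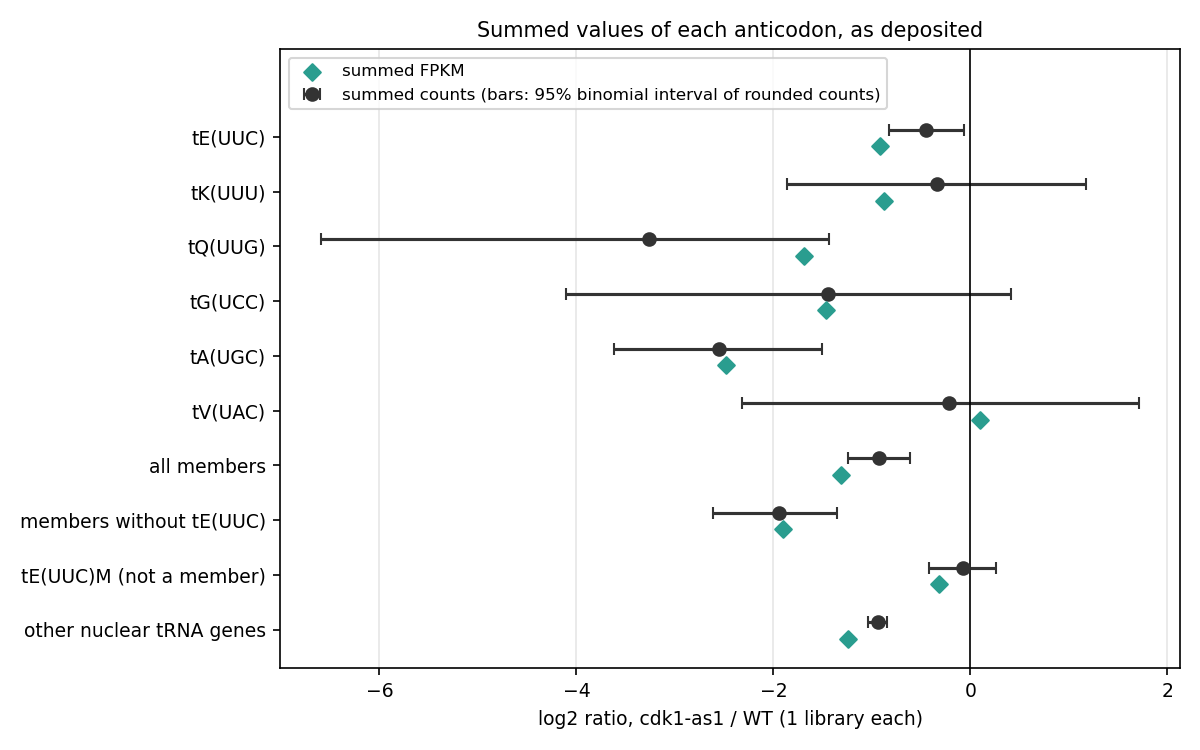
Log2 ratio of cdk1-as1 to WT in counts summed over the genes of each anticodon (circles, bars are 95% exact binomial intervals of the rounded counts, counting error only) and in summed FPKM (diamonds), as deposited, with 1 library per strain. tR(UCU) has no value in cdk1-as1 and is left out. The bars of tQ(UUG), tA(UGC) and tE(UUC) lie below 0, those of tK(UUU), tG(UCC) and tV(UAC) cross it, and all members lie at −0.93 beside −0.94 for the other nuclear tRNA genes. Counts are not set to equal totals, with which the interval of tE(UUC) lies above 0.

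The same amino acids are also read by tRNAs with another first anticodon base, which are not Elongator substrates. For alanine the 11 tA(AGC) genes had 34.9 counts in WT against 8.20 in cdk1-as1, a log2 ratio of −2.09 with bounds of −3.45 and −0.996, which overlaps that of tA(UGC). For glutamate the 2 tE(CUC) genes had 231 and 142 counts, a log2 ratio of −0.70 (−1.01 to −0.39), which overlaps that of tE(UUC). In summed FPKM tE(UUC) and tE(CUC) lay at −0.92 and −0.97, whereas tA(UGC) lay at −2.48 and tA(AGC) at −1.23, so for alanine the anticodons were further apart in FPKM than in counts. With the same total FPKM the alanine values were −1.21 and 0.04. In counts with equal totals they were −1.64 (−2.71 to −0.59) and −1.18 (−2.54 to −0.08), so both intervals lay below 0 and they overlapped. For valine the 14 tV(AAC) genes had 111 and 25.9 counts, at −2.10 (−2.77 to −1.47), below the value of tV(UAC) but with overlapping intervals. The 14 tK(CUU) genes had 2.95 counts in WT against 0.0792 in cdk1-as1, and the 17 partner genes of glycine had 3.66 counts in WT and none is listed in cdk1-as1. The partner arginine genes tR(ACG) had 13.4 and 1.83 counts, at −2.86 (−5.89 to −0.56). As with tR(UCU) and tG(UCC), these are too few counts to set lysine, glycine or arginine anticodons apart.

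Elongator also modifies the tRNAs tP(UGG), tS(UGA) and tL(UAA), which lie outside the group. Their 15 genes, all with both values, had a log2 ratio of −0.97 in summed counts (−1.18 to −0.76). By FPKM 10 of the 15 (66.7%) were lower, against 91.1% of the 191 nuclear genes. The 5 that were higher are 4 tL(UAA) genes that share 1 log2 ratio and 1 tS(UGA) gene. By anticodon the log2 ratio in summed counts was −1.08 (−1.52 to −0.66) for tP(UGG), −1.24 (−1.95 to −0.55) for tS(UGA) and −0.89 (−1.14 to −0.63) for tL(UAA). The wobble uridine of tL(UAG) and tI(UAU) is not an Elongator substrate, and their 5 genes had −1.07 (−1.52 to −0.62) together. They did not lie together, with −1.81 (−2.51 to −1.18) for tL(UAG) and −0.11 (−0.80 to 0.57) for tI(UAU). The intervals of both lists overlapped that of the 46 genes (−0.93).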

How the data were processed

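Small RNA of 1 WT and 1 cdk1-as1 library, both of S phase cells, was compared. The study used a kit for small RNA, paired-end sequencing, the Ensembl R64 genome and annotation, and ERCC spike-in standards, and the submitters' processing notes name sacCer3. No source at hand names the aligner or the counting program. The authors deposited estimated counts and FPKM values of tRNA genes, and a side-by-side table with RPKM values, their log10, a log2 fold change and a score headed FDR, of which the fold change and the score, the authors' own comparison, were not used. For all 46 members its RPKM equals the FPKM to a relative 1e-05 (0.1 stands for absent). How the standards entered the FPKM values is not stated, so level differences between libraries rest on that scaling. The total count was 2952 for WT and 1570 for cdk1-as1. These totals are far below the number of clean reads per sample that the study names. How a count relates to a read is not stated.

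All 252 genes were matched by position to RefSeq, and sequences were taken from it. The misprinted tE(UUC)B) is written tE(UUC)B. Log2 ratios, without a pseudocount, cover genes with both values, and sums count absent genes as 0. Intervals at 95% are exact Poisson or Clopper-Pearson intervals of rounded counts (scipy 1.17.1). The code for the Clopper-Pearson intervals was run on simulated whole, independent counts. That run cannot show how the intervals hold for fractional counts divided among like copies. Every member was named by sets of copies with identical values. No fold is given for a named set that stays at or under 3 counts in both libraries. The numbers of genes at least 2-fold lower or higher do include such sets. Members, lists and alternatives were chosen with earlier results of these data known, and those named in the next part as chosen later were added after the files were seen.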

Additional observations from a re-analysis of the deposited data

Results flagged for a closer look

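The mitochondrial genes with the same anticodons enter no comparison above. A pair of them had a higher count in cdk1-as1 than in WT, which is why they are given. tG(UCC)Q had 2.98 counts in cdk1-as1 against 0.916 in WT, and tA(UGC)Q had 0.190 counts in cdk1-as1 and is absent from the WT table. Both stay under 3 counts. Lower in cdk1-as1 were tQ(UUG)Q, with 19.8 counts in WT against 1.42, and tE(UUC)Q, with 6.10 against 3.83. tV(UAC)Q had 0.849 counts in WT and no value in cdk1-as1.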

How the results depend on the processing

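Of the 35 genes with both values 25 were lower. This number became 8 of 11 with identical copies counted as 1, 16 with the same total FPKM and 16 by counts with equal totals. With alternatives chosen after seeing the data it was 10 of 10 at 10 or more counts (3 of which pass only through WT, so that the direction follows from the filter), 5 of 6 anticodons by summed FPKM and 6 of 6 anticodons by summed counts. The median of −0.81 became −1.16 with copies counted as 1, −2.24 at 1 or more counts in one library, −1.32 with tP(UGG), tS(UGA) and tL(UAA) added, −0.31 by counts, and changed sign with the same total FPKM (0.46) and with equal count totals (0.60). Pseudocounts of 1, 100 and 1000 moved it to −0.80 at most. The log2 ratio of summed FPKM (−1.32) became −0.046 with equal totals, −0.91 with tE(UUC)M added and −1.90 without tE(UUC), chosen after seeing the data. That of summed counts (−0.93) became −0.017, −0.54 and −1.95 in the same way. Equal totals add a constant to each log2 ratio, and the cause of the other differences was not tested. By anticodon, equal totals turned glutamate and lysine positive in summed FPKM (0.35 and 0.40) and in counts (0.46 and 0.57), while alanine (−1.21 and −1.64), glutamine (−0.42 and −2.35) and glycine (−0.19 and −0.54) stayed below 0 and valine lay at 1.36 and 0.70. No paired analysis was possible because there is 1 library per strain, and for the same reason no replicate could be left out. Low counts limit lysine, glycine, arginine and valine, each with at most 10.0 counts in WT, and glutamine, with 2.28 counts in cdk1-as1 and the widest interval.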
